A study of Caenorhabditis elegans with 2 samples.

Results

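The genes set-2, set-16, lin-53 and lin-54 encode chromatin regulators of Caenorhabditis elegans, and each had a peak of the F10E7.11 protein just upstream of its 5′ end. They are 4 of 19973 protein-coding genes on the nuclear chromosomes. The 4 genes were selected on measured values, namely a summit in their promoter in the authors' list of peaks past an irreproducible discovery rate (IDR) threshold, so their peaks are described here without a test. A region was assigned to a gene when its summit lay in the gene or within 1000 bp upstream of it.

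Binding was measured by chromatin immunoprecipitation and sequencing (ChIP-seq) in young adults of strain OP658, genotype unc-119(tm4063) III; wgIs658, grown as whole mixed-sex populations to 63 hours after starved L1 larvae were synchronised. The strain carries F10E7.11 fused at its C terminus to GFP and FLAG, and the immunoprecipitation was against GFP, per the description in the labels, whereas their antibody field names F10E7.11. There was 1 group, of 2 biological replicates, and no comparison group; control data were not analysed here. Tissues cannot be told apart in whole animals, and the tagged protein comes from a transgene. All positions are in ce11.

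Histone methylation and the repression of genes by pocket proteins are among the main ways by which chromatin sets transcription. SET-2, a SET1-type enzyme, and SET-16, an MLL-type enzyme, methylate lysine 4 of histone H3, a mark of active promoters, within COMPASS-type complexes. LIN-53 is a histone-binding WD repeat protein related to RbAp46/48 that is shared by several complexes, among them DREAM and NuRD. LIN-54 is the DNA-binding subunit of MuvB, the core of the DREAM complex, which in worms represses cell cycle and germ line genes in the soma. Both lin genes were first known as synthetic multivulva genes, which antagonise vulval induction.

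The DNA under the summits of set-2, set-16 and lin-54 is shown because the same short words recurred at 2 of these sites and were not found at the third. The lin-53 site also held none of the words and is not shown, so the sites shown were picked with the matches in view. Each sequence is read from the RefSeq WBcel235 genome on the strand of the named gene, covers 200 bp centred on the IDR summit, and is in lower case with capitals at matches on either strand to 6 words, namely ACGCAG and GACGCA, also CACTCG and CTGCGC, and lastly GCAGAC and GAGAGA. The windows are chrIII:4930372-4930571 on the minus strand for set-2, chrIII:13643659-13643858 on the plus strand for set-16 and chrIV:13240652-13240785 on the plus strand for lin-54. The last was shortened by 66 bases, which lie in the neighbouring gene rpl-12.
set-2: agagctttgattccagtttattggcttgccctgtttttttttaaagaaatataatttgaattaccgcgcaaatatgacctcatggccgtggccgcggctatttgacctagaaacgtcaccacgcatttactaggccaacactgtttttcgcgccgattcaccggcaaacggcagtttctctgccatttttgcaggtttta
set-16: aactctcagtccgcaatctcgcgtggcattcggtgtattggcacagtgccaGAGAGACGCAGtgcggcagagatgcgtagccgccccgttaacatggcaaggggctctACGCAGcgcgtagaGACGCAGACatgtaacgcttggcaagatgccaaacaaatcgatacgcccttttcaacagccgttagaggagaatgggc
lin-54: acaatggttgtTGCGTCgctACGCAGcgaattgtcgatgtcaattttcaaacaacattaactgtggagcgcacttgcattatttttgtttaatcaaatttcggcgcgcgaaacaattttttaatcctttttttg

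The set-16 window held ACGCAG 3 times, each on the strand of the gene, and its nearest bases lay 8, 23 and 39 bp from the summit. The longer run GACGCAG, in which GACGCA and ACGCAG overlap, occurred at the outer pair of these sites. In the lin-54 window, ACGCAG lay 9 bp from the summit and GACGCA, present as its reverse complement TGCGTC, lay 18 bp from it. None of the 6 words occurred within 200 bp centred on the summits of set-2 or lin-53. Over all 575 IDR summits, windows of this length held ACGCAG at 95, or 16.5%, and GACGCA at 77, or 13.4%, and over the 18286 pooled candidate summits the shares were 7.39% and 7.55%. Only 2 of the 575 IDR windows held 3 copies of ACGCAG, of which set-16 was 1, and none held more.

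The words were known to be frequent at IDR summits of these data before they were searched for here, so a match at a member describes its sequence and supports nothing about the protein. CACTCG was present at 12.2% and CTGCGC at 11.5% of the 200 bp IDR windows, and neither was in a window of a member. GCAGAC, at 11.5% of IDR windows and 6.61% of pooled ones, and GAGAGA, at 26.6% and 15.7%, were in the set-16 window only among the 4 members. A shorter core, ACGCA, was chosen after the sequences had been seen; it occurred 4 times at set-16, 2 times at lin-54, 1 time at set-2 and 0 times at lin-53. At least 1 copy was in 33.9% of IDR windows and 21.0% of pooled windows, and 4 or more copies were in 4 of 575 IDR windows.

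Base composition also differed among the 4 sites. In the central 100 bp, G+C content was 59% at set-16, 55% at lin-53, 47% at set-2 and 42% at lin-54, against a mean of 45.6% ± 9.6 (SD, n = 575) over the IDR summits. Of these, 29 had a higher value than set-16 and 359 a higher value than lin-54. The words ACGCAG and GACGCA thus occurred at the sites of highest and of lowest G+C content among the 4.

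The set-2 gene, WBGene00004782, spans positions 4922427 to 4930204 on the minus strand of chromosome III, and its peak was among the stronger ones in replicate 1 and near the median of the list in replicate 2. The IDR region, 4930254 to 4930689, had its summit 268 bp upstream of the 5′ end. Its signal value, a score of the authors' peak caller that has its own scale in each list, was 177 in the pooled list, where it ranked 350 of 18286 with a −log10 q-value of 2.15. In replicate 1 the region ranked 252 of 18116, with a signal value of 144 and a −log10 q-value of 2.73. In replicate 2 the region at the same site ranked 12071 of 25275, with a signal value of 24.0, close to the list's median of 23.7, and a −log10 q-value of 0.12. The summit positions themselves lay within 13 bp of each other in the pooled list and both replicates.

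Few IDR peaks were placed so low in replicate 2. Of the 573 IDR peaks that overlie a replicate 2 region, only 6 ranked lower there than set-2. IDR peaks had a median rank of 371 in that replicate, against 288 in replicate 1. In replicate 2 the regions of highest rank at set-2 were in its 3′ UTR and a coding exon, at ranks 10437 and 10685, with −log10 q-values of 0.15 each. Of the 2 replicates, only replicate 1 thus placed the promoter of set-2 past a q-value of 0.05.

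The set-2 summit lay in a gap of 397 bp between 2 genes on the same strand. The 3′ end of C26E6.12 was 130 bp from the summit, nearer than the 5′ end of set-2, and the 5′ end of C26E6.12 was 1781 bp away. Set-2 has 3 annotated transcripts with separate starts, of which the farthest begins 4104 bp downstream of the first, and no candidate region of the pooled list had a summit at or inside the gene body. Across its 7778 bp, replicate 1 listed 1 region and replicate 2 listed 3, none with a q-value under 0.05.

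The set-16 gene, WBGene00011729, spans positions 13643916 to 13656637 on the plus strand of chromosome III, and its promoter peak had similar ranks in both replicates. The region 13643541 to 13643976 had its summit 157 bp upstream of the 5′ end and a pooled signal value of 197, at rank 238. It ranked 294 in replicate 1, with a signal value of 137, and 360 in replicate 2, with 56.3. Its −log10 q-value was 2.74 in the pooled list, 2.29 in the first and 2.38 in the second replicate, so the region was past a q-value of 0.05 in each list. Summits in these lists lay within 7 bp.

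The 5′ end of set-16 faces that of drr-2, which encodes a translation initiation factor related to eIF4H, across 345 bp. The summit was 157 bp from set-16 and 189 bp from drr-2, so the peak lay close to the middle of the gap and cannot be assigned to either gene from position. By the rule on distance it counted for both.

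The body of set-16 also held weaker regions. The pooled list had regions with summits 7875 and 2202 bp downstream of the 5′ end, at ranks 2503 and 14657, both in coding exons and with −log10 q-values of 0.57 and 0.04. In replicate 2 the corresponding regions were stronger, at rank 713 with a −log10 q-value of 1.66 and at rank 1286 with 1.06. The first also had a region in replicate 1, at rank 7171 with a −log10 q-value of 0.17, and the second had none there. The site 7.9 kb into the gene was the only region in the body of any member that passed a q-value of 0.05 in any list, and it did so in replicate 2 alone. In all, replicate 1 listed 4 regions in the body of set-16 and replicate 2 listed 5.

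**Figure D1:**
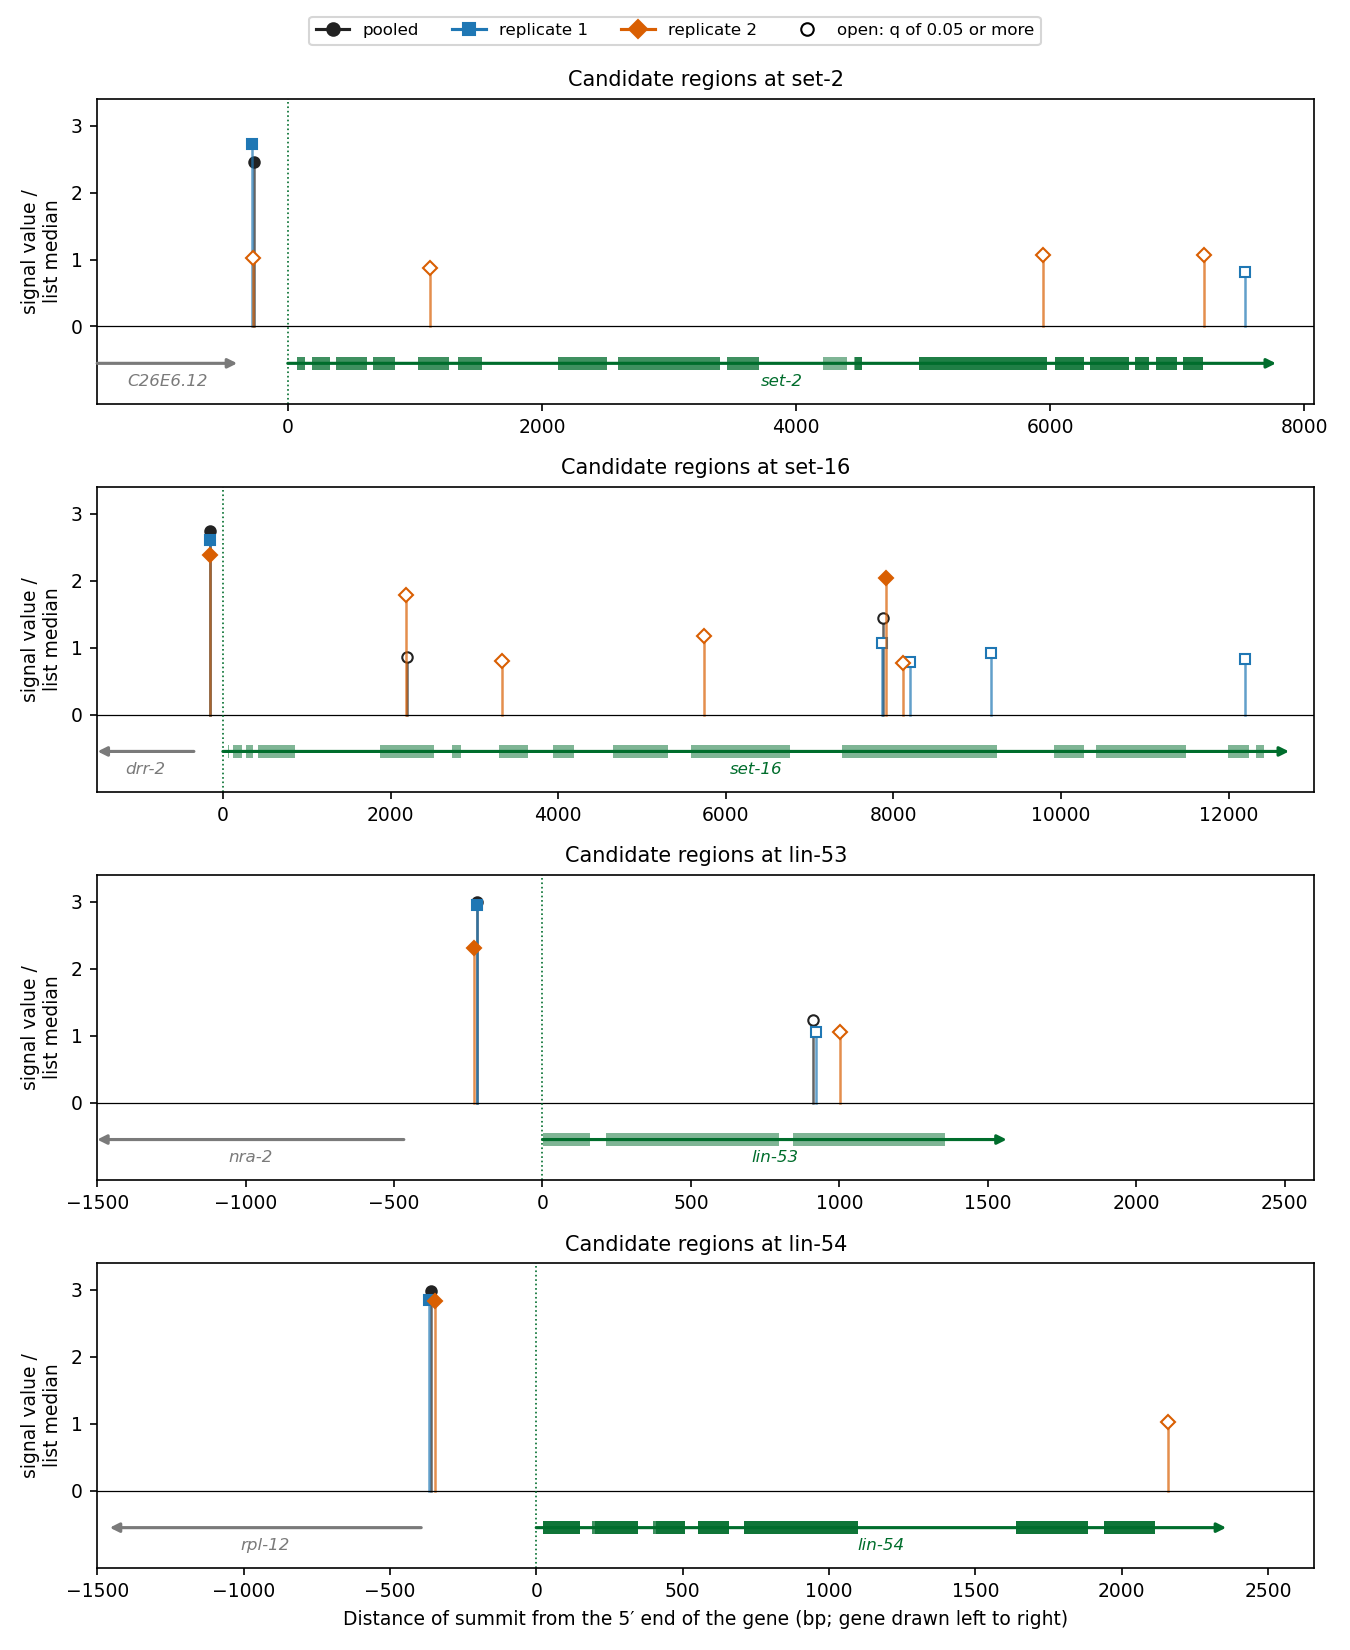
Candidate regions at the 4 genes. Each stem marks a summit by its distance in bp from the 5′ end of the gene, which is drawn left to right in green with its coding exons as boxes, and its height is the signal value divided by the median of that list; circles are the pooled list, squares replicate 1 and diamonds replicate 2, open where the q-value was 0.05 or more, and grey arrows are neighbouring genes, some ending at the left edge of the panel. At set-16, lin-53 and lin-54 the promoter stems of both replicates are filled, while at set-2 that of replicate 2 is open and at 1.02 times its list's median.

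The lin-53 gene, WBGene00003036, spans positions 9618196 to 9619760 on the minus strand of chromosome I, and its promoter held the strongest of the 4 peaks in the pooled list by a small margin over lin-54. The region 9619763 to 9620198 had its summit 221 bp upstream of the 5′ end and a signal value of 215.3, at rank 164. In replicate 1 it ranked 175, with a signal value of 156, and in replicate 2 it ranked 414, with 54.6. The −log10 q-value was 2.74 in the pooled list, 2.73 in replicate 1 and 2.44 in replicate 2. The gene faces nra-2, which encodes an endoplasmic reticulum protein related to nicalin, across 466 bp, and the summit was 246 bp from the 5′ end of nra-2, again near the middle.

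The paralogue of lin-53, rba-1, which also encodes an RbAp46/48 protein, lies next to it on the same strand, and had no IDR peak. Its strongest pooled region had its summit 387 bp inside the gene, with a signal value of 91.1 at rank 4044 and a −log10 q-value of 0.35. A weak pooled region in a coding exon of lin-53, 911 bp from its 5′ end at rank 4399, lies within 1000 bp upstream of rba-1 and counts for both. The replicates listed regions at 920 and 1002 bp, with −log10 q-values of 0.16 and 0.14.

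The lin-54 gene, WBGene00003037, spans positions 13241044 to 13243401 on the plus strand of chromosome IV. Its peak had similar ranks in the pooled list and both replicates. The region 13240468 to 13240903 had a pooled signal value of 214.7, at rank 165, directly after lin-53. It ranked 198 in replicate 1, with a signal value of 151, and 163 in replicate 2, with 67.1. The −log10 q-values of 2.73 and 2.86 were the highest that occur in those lists, where 266 and 359 regions share them. The summit lay 358 bp upstream of lin-54.

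This summit lay only 35 bp from the 5′ end of rpl-12, a gene for a protein of the large ribosomal subunit that faces lin-54 across 392 bp. When each summit was given only to the gene with the nearest 5′ end, the peak went to rpl-12, and 3 of the 4 members kept one, against 1.64% of protein-coding genes. Position therefore does not assign the peak to lin-54 rather than to rpl-12. The gene body of lin-54 held no pooled or replicate 1 region, and replicate 2 had 1 in its 3′ UTR, at rank 11373.

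An IDR summit lay in the window of 479 of 19973 protein-coding genes, or 2.40%, and in the window of all 4 members, which is what selected them. In a narrower promoter window, which spans 500 bp before and 100 bp after the 5′ end, it was 177 genes, or 0.886%, and again 4 members. Among the 575 strongest regions of replicate 1 alone, 4 members had one against 2.45% of genes, and among those of replicate 2 alone 3 members, without set-2, against 2.51%. Requiring a q-value under 0.05 in both replicates left 432 of the 575 IDR peaks, 1.86% of genes and the members set-16, lin-53 and lin-54. Since the pooled list draws on both replicates, the replicates alone are not a separate test.

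**Figure D2:**
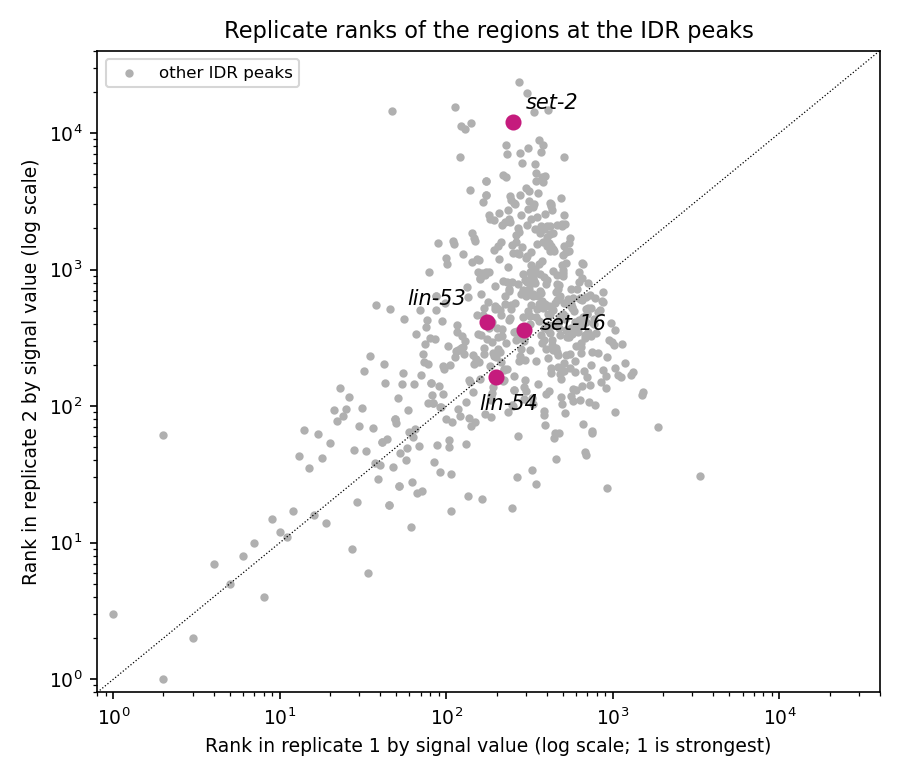
Rank in replicate 2 against rank in replicate 1, by signal value and on log scales, of the strongest region that holds the summit, for the 573 IDR peaks for which both lists have one; grey points are other peaks, pink points the 4 genes and the dotted line equal ranks. The genes set-16, lin-53 and lin-54 lie near the line at ranks of 163 to 414, and set-2 lies far above it, at rank 252 in replicate 1 and 12071 in replicate 2.

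The peaks of set-16, lin-53 and lin-54 lay between opposite 5′ ends. Of 1696 neighbouring protein-coding pairs with such ends at most 1000 bp apart, 28, or 1.65%, had an IDR summit between them, among them set-16 with drr-2, lin-53 with nra-2 and lin-54 with rpl-12. The median gap of the 28 pairs was 485 bp and that of all pairs 472 bp, and the gaps of the members were 345, 466 and 392 bp. The members were chosen for promoter peaks, so nothing is read from their number here. None of the 4 summits had a noncoding RNA gene within 1000 bp.

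Away from the promoter summits, candidate regions were few in the pooled list. It held 7 regions at the 4 genes, of which 4 were the IDR peaks and 3 lay in coding exons. Replicate 1 listed 10 regions and replicate 2 listed 14, of which 5 and 8 lay in coding exons away from the promoter and none in introns. A summit in a coding exon of any transcript was counted there. The share over all candidate regions was not computed, so no preference for exons is read from these counts. Per 10 kb of window, set-2 had 1.14 pooled regions, set-16 2.19, lin-53 7.80 and lin-54 2.98, against 1.82 over the nuclear genome. These densities include the promoter peak that selected each gene, so nothing is read from their difference to the genome. Without that peak, set-2 and lin-54 had 0 pooled regions, lin-53 had 1 and set-16 had 2. The short windows of the lin genes make their densities rest on 2 regions and 1 region. The strongest region away from a promoter ranked 2503 in the pooled list, 7171 in replicate 1 and 713 in replicate 2.

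Within the IDR list the 4 peaks were of ordinary strength. Its signal values ran from 155 to 655 with a median of 186, and set-2, at 177, lay below the median while the other 3 lay above it. The peaks ranked directly before and after set-2 had signal values of 176.6 and 176.4, and those beside set-16 196.7 and 196.5. At the edge of the list, the last IDR peak had a pooled signal value of 154.97 and the first pooled region outside it 154.96. Both had a −log10 q-value of 1.78. Their pooled ranks were 575 and 576, so the 575 IDR peaks were the 575 strongest regions of the pooled list.

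Likeness to a member was measured over 6923 protein-coding genes with a region in each of the 3 candidate lists, as the sum of the absolute differences of log10 ranks. The genes that share a peak, drr-2, nra-2 and rpl-12, had a difference of 0 by construction. For set-2 the nearest were ufd-3 (0.217), thoc-5 (0.219) and col-185 (0.301). Their low ranks in replicate 2, at 11929, 8179 and 6987, follow from the measure, which includes that rank. Next after the partner genes came Y62E10A.13 and nuaf-1 for set-16, unc-70 and mip-2 for lin-53, and pbrm-1 and unc-58 for lin-54, with differences between 0.072 and 0.120. Some of these regions lie far from a 5′ end, such as 7709 bp from that of unc-70.

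Among the other listed genes of the COMPASS-type, DREAM and NuRD complexes, lin-9 was the only one with an IDR peak, as 1 of 6 in DREAM, 0 of 8 in COMPASS and 0 of 9 in NuRD. A list of 56 chromatin genes, made from complexes and enzyme classes, had 6 with an IDR summit. Outside the 4 members it had 2 of 52, lin-9 and set-17, against the 2.40% of all protein-coding genes. The list need not hold every chromatin gene, so this count covers the listed genes only. The gene pbrm-1, for example, was not on it. Its strongest region, 5212 bp from the 5′ end and at pooled rank 156, was among the IDR peaks and ranked before those of all 4 members. In the list of 10 COMPASS-type genes only set-2 and set-16 had one. The other COMPASS-type genes were led by ash-2, a core subunit, whose strongest pooled region lay 467 bp inside the gene with a signal value of 138 at rank 865. That of wdr-5.1 reached 93.3, that of dpy-30 80.9, that of utx-1, an H3K27 demethylase, 67.5 and that of cfp-1, the CXXC finger subunit, 58.5; rbbp-5, swd-2.2 and pis-1 had none in the pooled list.

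In the DREAM list, all 8 genes had a pooled candidate region, against 45.9% of all protein-coding genes and 44 of the 56 listed chromatin genes. An IDR peak was at 3 of the 8, against 2.40% of all protein-coding genes. These were lin-9 and the members lin-53 and lin-54, which were selected for it. The region at lin-9, which encodes a MuvB subunit, had its summit 133 bp upstream of the 5′ end, with a signal value of 186 at rank 287; its strongest regions ranked 364 in replicate 1 and 693 in replicate 2. The next were lin-35, the worm pocket protein, with 147 at rank 694 and 236 bp upstream, and the MuvB genes lin-37, with 135 at rank 954, and lin-52, with 128 at rank 1125. These 3 lay below the IDR edge. In replicate 2 the strongest regions of lin-35, lin-37 and lin-52 ranked 3706, 2177 and 993. That of lin-35 lay 1637 bp downstream of the 5′ end there, not at the promoter. The E2F and DP genes efl-1 and dpl-1 had 70.0 and 81.8. The medians over the strongest pooled regions, 141 for the DREAM list and 93.3 for the COMPASS-type list, include members that were selected for a strong peak. Without the members they were 132 over 6 DREAM genes and 80.9 over the 5 COMPASS-type genes with a pooled region, against 78.3 over the 9163 protein-coding genes with one.

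Without the members, the medians of the NuRD, PRC2, other SET domain and demethylase lists, 86.2, 90.5, 87.9 and 82.7, lay above that of the COMPASS-type list. The median of the heterochromatin and synMuv list, 76.1, lay below it. The PRC2 median rests on only 2 genes with a pooled region. The 10 NuRD genes had lin-53 alone with an IDR peak, and the next highest signal value was 117, at lin-40. Of the 11 other SET domain methyltransferases that were listed, which need not be the whole class, set-17 had an IDR peak. It had rank 545 and a signal value of 157. Its summit lay 1385 bp downstream of the 5′ end of a gene of 1435 bp, thus at its far end. The listed 3 PRC2, 9 demethylase and 6 heterochromatin and synMuv genes had no IDR peak, with highest signal values of 104, 127 and 120. The gene F10E7.11 itself had no IDR peak; its 1 pooled region ranked 10478, with a signal value of 68.9, and replicate 2 listed none.

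**Figure D3:**
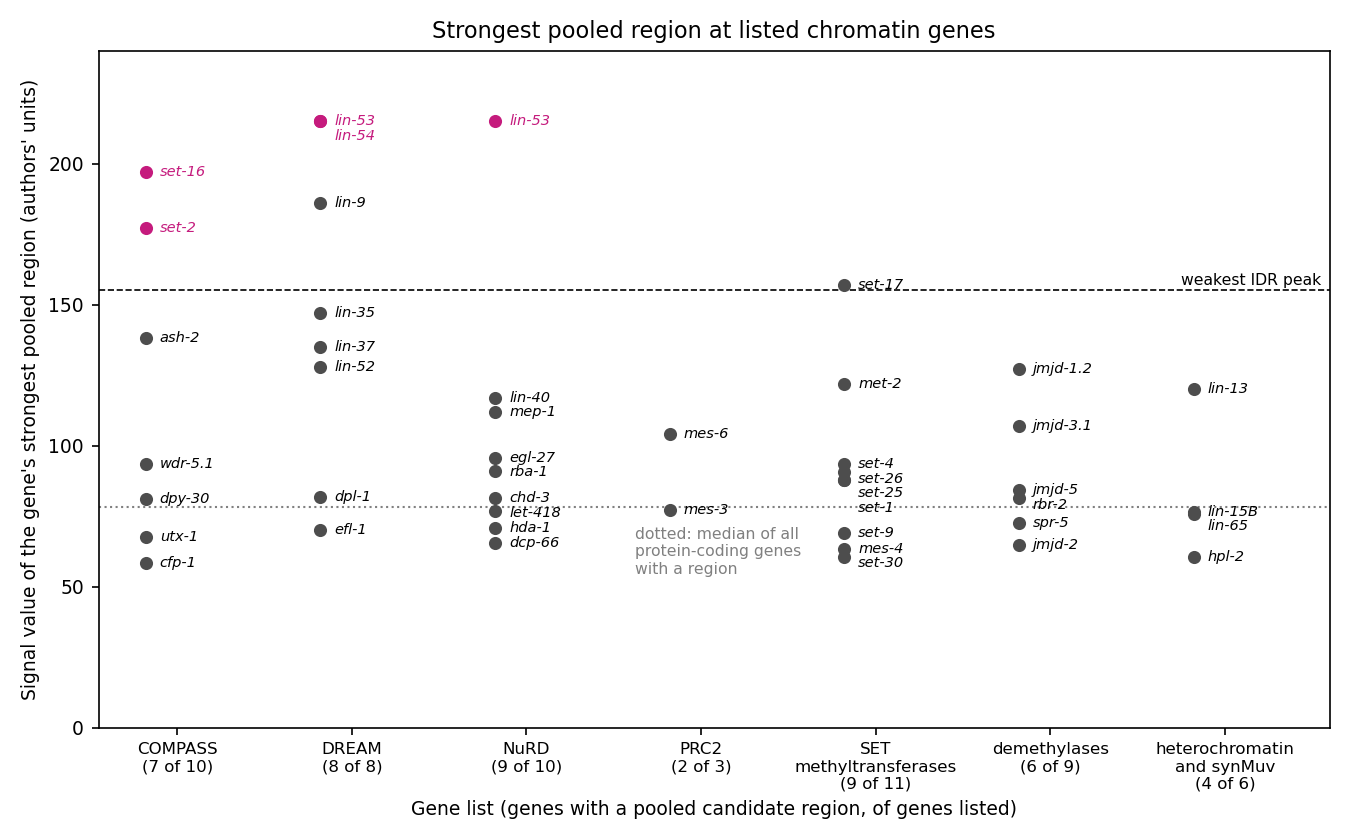
Signal value, in the authors' units, of the strongest pooled candidate region in or up to 1000 bp upstream of each gene of 7 chromatin lists; pink marks the 4 genes, and genes with no pooled region are counted in the axis labels and not drawn. The dashed line is the weakest IDR peak, at 155, and the dotted line, at 78.3, the median over protein-coding genes with a region; lin-9 and set-17 are the other genes above the dashed line.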

How the data were processed

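Peak lists in ce11 of 2 biological replicates, of the pooled replicates and past an IDR threshold were used as deposited. Each region has a signal value of the authors' peak caller and a −log10 of a q-value, both deposited by the authors, and a summit. Candidate lists were meant as IDR input and hold background by design. The sources used here do not give the aligner, the caller, the IDR threshold or read depth, so no counting error could be given. Lists in ce10 were not used here, and no coordinate was converted.

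Summits were set against Ensembl release 115 genes and the RefSeq WBcel235 genome with Python 3.11.15, numpy 2.4.6 and pandas 2.3.3, and drawn with matplotlib 3.10.9. Regions were ranked by signal value within each list. Replicate regions at an IDR peak were the strongest that held its summit. No test was run. The assignment of summits to genes was checked on simulated positions. The members, the words and the chromatin lists were chosen with earlier results of these data known. Genes were named if they were members, listed genes with an IDR peak, genes within 1000 bp of a member's summit, F10E7.11, or the 3 genes of most similar ranks; other subunits and rba-1 were picked with their values in view. Alternatives changed the window, the list, the replicate and the assignment.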

Additional observations from a re-analysis of the deposited data

How the results depend on the processing

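Promoter peaks at set-16 and lin-53 were present under all 9 alternatives to the count of members with an IDR peak. The peak of set-2 was absent without replicate 1, among the 287 strongest IDR peaks and with a q-value under 0.05 in both replicates, the last an alternative added after the data were seen, and that of lin-54 was absent when only the nearest 5′ end counted. The count of members thus ran from 3 to 4. The count of listed chromatin genes with an IDR peak, 6, ran from 4 to 7. With a window of 2000 bp upstream, rba-1 entered through the peak of lin-53. When any overlap of 1 bp sufficed, an alternative added after the data were seen, set-25 entered. Among the strongest regions of replicate 2 alone, lin-9, set-17 and set-2 left and set-26 entered, and among those of replicate 1 alone set-17 left and lin-35 entered.

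The number of pooled candidate regions at the 4 genes, 7, became 4 with a q-value under 0.05 and 10 with a window of 2000 bp upstream. In the lists of single replicates, an alternative added after the data were seen, it was 10 to 14. The strongest region of set-2 in replicate 2 lay 7207 bp downstream of the 5′ end instead of 268 bp upstream; the cause was not tested. Ranking by q-value moved set-2 from 350 to 433 in the pooled list and left the ranks of the other 3 members as they were.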
